A study of Homo sapiens with 4 samples.

Results

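Solute carrier (SLC) genes encode membrane transporters, and those with enough reads were followed in SAS oral cancer cells after knockdown of STAU1. The members are the protein-coding genes whose symbol starts with SLC and a digit and whose counts, summed over all 4 libraries, reached at least 200. Among the 377 protein-coding genes with such a symbol, the members were chosen by this summed level alone, which took in 179. Of the 198 others, 81 had no count, 56 had from 1 to 10 counts and 61 had from 11 to 199 counts. The members just inside the minimum were SLC27A2 with 204 summed counts, SLC7A8 with 209 and SLC10A5 with 217. Just outside it were SLC35A3 with 193, SLC25A2 with 190 and SLC25A35 with 190. The members' summed counts ran to 324548, with a median of 2551, and together they held 1.06% of all counts. They belong to 42 families and were sorted into 12 groups by the known substrate of the family, with some genes placed singly. A group can thus hold genes with another substrate, as SLC2A9, known for urate, stands with the sugar transporters. The symbol alone also takes in 3 genes that are not transporters, SLC4A1AP, SLC2A4RG and SLC7A6OS, which were kept apart.

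Control cells (Ctrl, 2 libraries) received a virus with an shRNA against luciferase (shLuc), and the knockdown cells (shSTAU1, 2 libraries) received one with an shRNA against STAU1, a protein that binds double-stranded RNA. All 4 libraries are of cells labelled wild type in genotype, all carried the viral infection, and 1 shRNA per group was used. The time after infection and the number of separate cultures behind the libraries were not stated, so that p-values measure the spread between these libraries only. The growth protocol and the series' design give SAS, a line from a human squamous carcinoma of the tongue, while the cell line label names C3H 10T1/2, a mouse fibroblast line.

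STAU1 was counted at 249 and 251 CPM (counts relative to the library size after TMM scaling) in Ctrl and at 41.6 and 41.5 CPM in shSTAU1, a log2 fold change of -2.59 (SE 0.13, edgeR's quasi-likelihood test, adjusted p = 0.00103). The libraries held from 32206655 to 36301574 counts, and 14303 genes were tested. All 9 squamous epithelial markers were above 1 CPM, with a summed level of 7119 to 7551 CPM in Ctrl and 8703 to 11354 CPM in shSTAU1. Not all of them rose: DSG3 and CDH1 had log2 fold changes of -0.76 and -0.29, and the others were above 0. Of the 9 fibroblast markers, 3 were above 1 CPM. VIM and COL1A1 were lower in shSTAU1 (log2 fold changes -1.44 and -1.35, edgeR's quasi-likelihood test, adjusted p = 0.0467 and 0.0360). COL1A2 was higher (1.01, same test, adjusted p = 0.185). THY1 was at 0 and COL3A1, DCN and LUM had at most 1 count in any library. The summed level of the fibroblast markers was 63.8 to 69.7 CPM in Ctrl and 22.8 to 32.7 CPM in shSTAU1. No leukocyte marker of 5 reached 1 CPM. Of 3 endothelial markers VWF and CDH5 were above 1 CPM and PECAM1 had at most 1 count in any library, and their summed level was 15.3 to 18.0 CPM in Ctrl and 7.44 to 17.0 CPM in shSTAU1. The part of these markers in the transporter results was not tested. In RNA from a whole culture, fewer cells with a transcript and less of it per cell cannot be told apart.

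Transporters of the SLC families move a solute across a membrane without hydrolysing ATP themselves. Some only let a solute run down its gradient, others couple it to the sodium or proton gradient, and exchangers swap a solute on either side. Most families sit in the plasma membrane, whereas SLC25 proteins work in the inner mitochondrial membrane, most SLC35 proteins in the Golgi and endoplasmic reticulum, and others in lysosomes and endosomes. Squamous carcinomas are known for high levels of the glucose transporter SLC2A1 and of the amino acid transporters SLC7A5, SLC3A2 and SLC7A11.

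Of the 179 members, all of which passed the low-count filter, 3 passed an adjusted p of 0.05: the mitochondrial ADP/ATP carrier SLC25A4 rose, and the neighbouring GABA and betaine transporters SLC6A12 and SLC6A13 fell. That share of members, 1.68%, stands beside 2.6% of all tested genes (372 genes, of which 1.13% higher and 1.48% lower). With library size in place of TMM, 132 of 404 calls over all genes were higher, against 161 of 372 with TMM. A wider limit of 0.10 on the adjusted p took in 22 members, 7 higher and 15 lower in shSTAU1, or 12.3% of members beside 11.1% of all tested genes. At an unadjusted p under 0.05, 15 members were higher, or 8.38% of them beside 12.9% of all tested genes, and 35 were lower, or 19.6% beside 11.6%. In 41 members both shSTAU1 libraries lay above both Ctrl libraries, 22.9% of members beside 28.5% of all tested genes, and in 60 members both lay below, 33.5% beside 28.0%. Members need at least 200 counts, which all tested genes do not. Among the 10334 protein-coding genes that met this minimum, 3.31% passed the adjusted p of 0.05 and 12.7% that of 0.10. At an unadjusted p under 0.05, 15.5% of them were higher and 11.3% lower. Without overlap between groups, 32.4% of them were higher and 25.3% lower. With 2 libraries against 2, an exact permutation test of a single gene cannot give a two-sided p below 0.333.

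The median log2 fold change of the members was -0.07, beside 0.01 over all tested genes and 0.05 over the 10334 protein-coding genes that met the same minimum of 200 counts. It lay at -0.12 for the members with library size scaling, where the median of all genes was -0.05. In all, 78 members were higher and 101 lower in shSTAU1, 60 lay within 0.2 of no difference on the log2 scale, and the values ran from -1.93 to 1.96. The summed level of the members was 10570 and 10638 CPM in Ctrl and 10544 and 10697 CPM in shSTAU1. Because the minimum of 200 is on summed counts, a gene near it could enter through the group in which it was higher, as SLC7A8 and SLC10A5 show. Of the members that reach a minimum of 1000 counts, 2 passed the adjusted p of 0.05 and the median was -0.07.

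**Figure D1:**
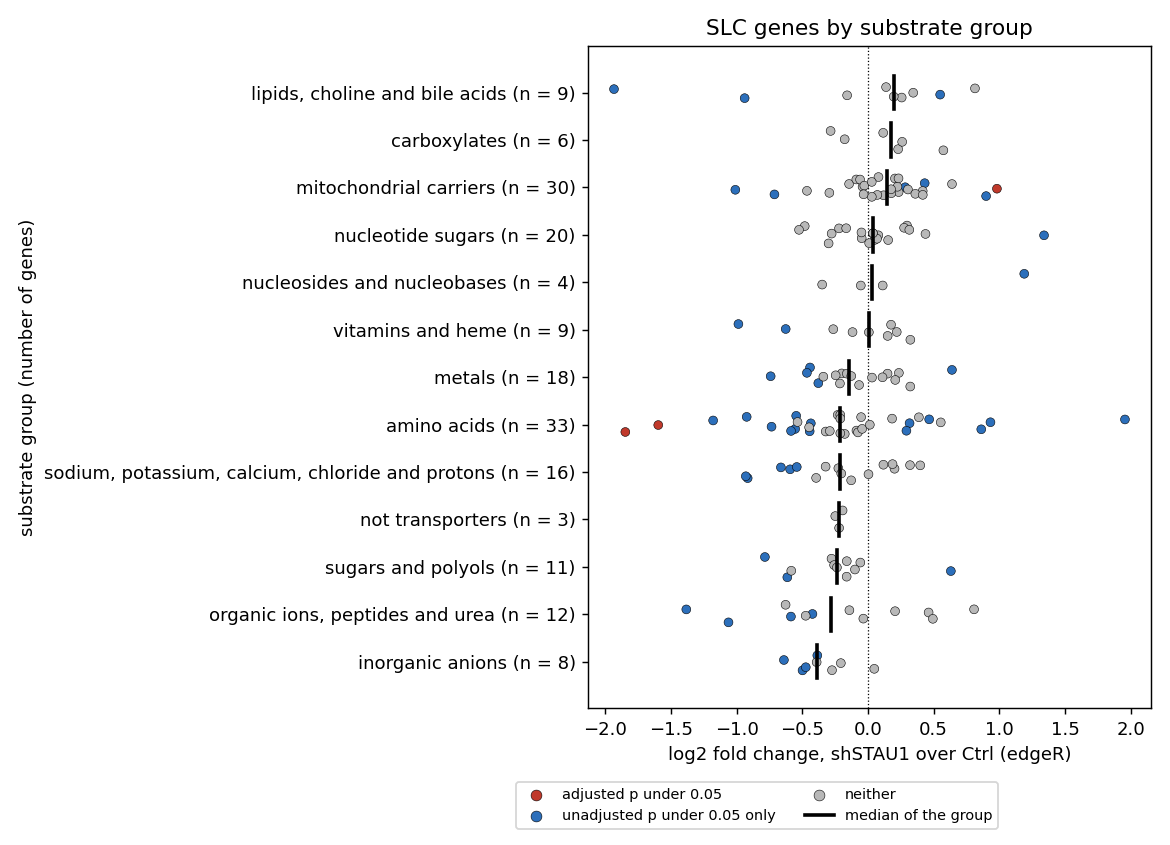
Log2 fold change of each of the 179 SLC members (x axis, shSTAU1 over Ctrl; each point is a gene), by substrate group (y axis, ordered by the group's median, which the black bar marks). Red points passed an adjusted p of 0.05, blue points passed an unadjusted p of 0.05 only; the inorganic anion transporters have the lowest median, -0.39, and the mitochondrial carriers are mostly above 0.

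SLC25A4 (ENSG00000151729.11) encodes ADP/ATP translocase 1, which exchanges ATP made in the mitochondrion for cytosolic ADP and is best known from heart and skeletal muscle. The gene is at chr4:185143241-185150382 on the plus strand (GRCh38). It was counted at 18.6 and 20.1 CPM in Ctrl and at 36.5 and 39.8 CPM in shSTAU1. The groups lay well apart, with means of 19.3 ± 1.05 CPM for Ctrl against 38.2 ± 2.34 CPM for shSTAU1 (SD, 2 libraries each), or 1.98 times the Ctrl level. It rose by a log2 fold change of 0.98 (SE 0.16, edgeR's quasi-likelihood test, adjusted p = 0.0357).

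SLC6A12 (ENSG00000111181.12, chr12:190077-214570, minus strand) encodes the betaine and GABA transporter BGT1, a carrier of the organic osmolyte betaine. It was counted at 6.51 and 8.92 CPM in Ctrl and at 2.24 and 2.86 CPM in shSTAU1. It fell 3.02-fold (log2 fold change -1.60, SE 0.29, edgeR's quasi-likelihood test, adjusted p = 0.0393), and its groups did not overlap. SLC6A13 (ENSG00000010379.16, chr12:220621-262873, minus strand) encodes GAT2, a carrier of GABA and taurine, and lies next to SLC6A12 on the same strand, with 6050 bases between them. Its values were 12.7 and 21.2 CPM in Ctrl and 3.27 and 6.14 CPM in shSTAU1. It fell 3.6-fold (log2 fold change -1.85, SE 0.36, edgeR's quasi-likelihood test, adjusted p = 0.0473), again with no overlap, though the replicates of each group were farther from each other than those of SLC25A4. The third GABA transporter among the members, SLC6A11, was at 24.5 and 30.1 CPM in Ctrl and 23.4 and 23.9 CPM in shSTAU1.

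All 3 calls were lost without a filter on low counts (edgeR's quasi-likelihood test, adjusted p = 0.0989 for SLC25A4, 0.102 for SLC6A12 and 0.127 for SLC6A13), without Ctrl replicate 1 (0.49 each, with no gene called at all) and without Ctrl replicate 2 (0.132, 0.191 and 0.153), and SLC6A13 was also lost with limma-voom (0.0509) and with offsets for transcript length and GC content (0.0501). Their direction held under every alternative run.

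The promoters of 4 members are shown because they set side by side the 2 ADP/ATP carriers, the most abundant member and 1 of the pair that fell. Sequences are from RefSeq on GRCh38.p14 and cover the 250 bases before the start annotated there, at chr4:185143016-185143265 (plus strand) for SLC25A4, chrX:119468194-119468443 (plus strand) for SLC25A5, chr12:262837-263086 (minus strand) for SLC6A13 and chr16:87869508-87869757 (minus strand) for SLC7A5. These starts differ from the GENCODE gene positions used elsewhere here, and the sequences of SLC25A4, SLC25A5 and SLC6A13 reach into those gene positions. Each of 5 motifs was searched on either strand, and capitals mark a match. The CCAAT box and the TATA box were searched by the letters CCAAT and by TATAAA, the E-box by the letters CACGTG, the antioxidant response element by the letters TGACNNNGC, and the C/EBP-ATF response element by the letters TGATGNAAN.
SLC25A4: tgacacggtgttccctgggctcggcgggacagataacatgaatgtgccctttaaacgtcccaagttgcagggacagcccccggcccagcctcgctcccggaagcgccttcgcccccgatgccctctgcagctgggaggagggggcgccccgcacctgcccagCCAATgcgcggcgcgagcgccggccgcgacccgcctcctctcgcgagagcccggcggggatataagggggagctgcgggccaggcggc
SLC25A5: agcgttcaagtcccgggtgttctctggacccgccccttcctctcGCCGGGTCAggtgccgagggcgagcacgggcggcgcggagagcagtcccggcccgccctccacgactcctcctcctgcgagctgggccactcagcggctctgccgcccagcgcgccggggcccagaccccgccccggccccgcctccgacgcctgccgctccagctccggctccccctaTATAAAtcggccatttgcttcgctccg
SLC6A13: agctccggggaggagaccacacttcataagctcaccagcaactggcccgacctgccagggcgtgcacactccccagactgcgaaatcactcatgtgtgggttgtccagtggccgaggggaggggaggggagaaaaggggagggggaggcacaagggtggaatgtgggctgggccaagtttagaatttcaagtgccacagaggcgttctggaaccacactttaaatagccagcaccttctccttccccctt
SLC7A5: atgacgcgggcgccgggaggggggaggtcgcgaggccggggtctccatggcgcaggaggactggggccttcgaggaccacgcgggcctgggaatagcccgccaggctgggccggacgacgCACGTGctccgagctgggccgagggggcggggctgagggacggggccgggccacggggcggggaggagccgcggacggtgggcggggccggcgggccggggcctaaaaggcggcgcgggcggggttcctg
SLC25A4 holds a CCAAT box, SLC25A5 a TATA box and an antioxidant response element on the reverse strand, SLC7A5 an E-box, and SLC6A13 none of these letters. Over the 144 members with a promoter in the RefSeq set of 27305, the E-box letters were in 12.5% beside 6.49% of all promoters, the antioxidant response element in 13.2% beside 11%, the C/EBP-ATF response element in 1.39% beside 3.18%, the CCAAT box in 31.9% beside 33.0% and the TATA box in 4.86% beside 11.1%. The GC content of the promoters had a median of 66.0% in members and 58.0% in all, and a match is a description of the sequence only.

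Amino acid transporters formed the largest group, with 33 members. Of these 10 were higher and 23 lower in shSTAU1, and their median log2 fold change was -0.21. The 2 that passed the adjusted p of 0.05 were SLC6A12 and SLC6A13, 6.06% of the group beside 2.6% of all tested genes. The median was -0.0919 without Ctrl replicate 1 and -0.1212 without shSTAU1 replicate 2. At an unadjusted p under 0.05, 10 were lower (30.3% beside 11.6% of all tested genes) and 6 were higher (18.2% beside 12.9%). The group's summed level, 4587 and 4743 CPM in Ctrl and 4693 and 4862 CPM in shSTAU1, had SLC7A5 as its largest part.

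SLC7A5 (LAT1) brings in leucine and other large neutral amino acids as a dimer with the glycoprotein SLC3A2. It was the member with the highest level per length, at 445 CPM per kilobase of exon in Ctrl and 554 in shSTAU1. Its counts stood at 2038 and 2183 CPM in Ctrl and 2531 and 2729 CPM in shSTAU1, with no overlap, but its log2 fold change of 0.32 (SE 0.12) did not pass (edgeR's quasi-likelihood test, adjusted p = 0.158). The partner SLC3A2 pointed the other way, with 363 and 407 CPM in Ctrl and 298 and 359 CPM in shSTAU1 (log2 fold change -0.23, SE 0.14). SLC7A11, which pairs with SLC3A2 to take up cystine for glutathione in exchange for glutamate, was at 163 and 111 CPM in Ctrl and 82.9 and 61.9 CPM in shSTAU1. The lower of its Ctrl values was still above both shSTAU1 values, and its log2 fold change was -0.92 (SE 0.22, edgeR's quasi-likelihood test, adjusted p = 0.0655).

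SLC1A3 (EAAT1), a sodium-driven glutamate and aspartate transporter, stood at 98.9 and 135 CPM in Ctrl and 38.9 and 64.5 CPM in shSTAU1. Its groups did not overlap, and the log2 fold change was -1.18 (SE 0.26, edgeR's quasi-likelihood test, adjusted p = 0.0568). SLC1A5 (ASCT2), a neutral amino acid exchanger used for glutamine, was at 80.2 and 85.8 CPM in Ctrl and 53.5 and 68.6 CPM in shSTAU1, and SLC1A4 at 7.97 and 5.93 CPM in Ctrl and 3.25 and 6.34 CPM in shSTAU1. All 3 measured SLC1 genes thus had a lower mean in shSTAU1, with overlap between groups in SLC1A4 only.

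Among the sodium-coupled SLC38 genes, SLC38A1 (SNAT1), which takes up glutamine, was at 398 and 364 CPM in Ctrl and at 259 and 260 CPM in shSTAU1 (log2 fold change -0.55, SE 0.12, edgeR's quasi-likelihood test, adjusted p = 0.0582). Its neighbour SLC38A2 (SNAT2), known for its induction when amino acids are scarce, was at 692 and 713 CPM in Ctrl and at 712 and 612 CPM in shSTAU1, and these groups overlapped. SLC38A4 (SNAT4) was low but apart, at 5.50 and 5.59 CPM in Ctrl and 9.94 and 10.2 CPM in shSTAU1 (log2 fold change 0.86, SE 0.21, edgeR's quasi-likelihood test, adjusted p = 0.0713). The SLC38 family therefore held members on both sides, 3 higher and 5 lower.

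The cationic amino acid transporters SLC7A1 (CAT1) and SLC7A2 (CAT2), which carry arginine and lysine, had log2 fold changes of -0.43 (SE 0.12; 200 and 193 CPM in Ctrl, 147 and 144 CPM in shSTAU1) and -0.73 (SE 0.21; 15.8 and 12.8 CPM in Ctrl, 8.88 and 8.32 CPM in shSTAU1). SLC7A7 (y+LAT1), another partner of SLC3A2, was at 3.15 and 3.27 CPM in Ctrl and 6.75 and 5.52 CPM in shSTAU1. In all 3 the groups did not overlap, with adjusted p of 0.0849, 0.0899 and 0.0908 in edgeR's quasi-likelihood test. Of all tested genes, 28.5% were higher and 28.0% lower without overlap. SLC7A8 (LAT2) had the highest log2 fold change of all members, 1.96 (SE 0.71), which rested on 1 library: its counts were 25 and 16 in Ctrl and 137 and 31 in shSTAU1, and the value was 0.52 without shSTAU1 replicate 1. The creatine transporter SLC6A8 was at 146 and 142 CPM in Ctrl and 183 and 170 CPM in shSTAU1 (log2 fold change 0.29, SE 0.12).

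Betaine, taurine and myo-inositol are the organic osmolytes that cells take up when the medium is hypertonic. Beside SLC6A12, the taurine transporter SLC6A6 was at 35.6 and 28.5 CPM in Ctrl and 30.4 and 26.3 CPM in shSTAU1, and the myo-inositol transporter SLC5A3 at 44.0 and 58.7 CPM in Ctrl and 34.9 and 52.3 CPM in shSTAU1. Both overlapped between groups, with log2 fold changes of -0.18 (SE 0.18) and -0.24 (SE 0.23).

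**Figure D2:**
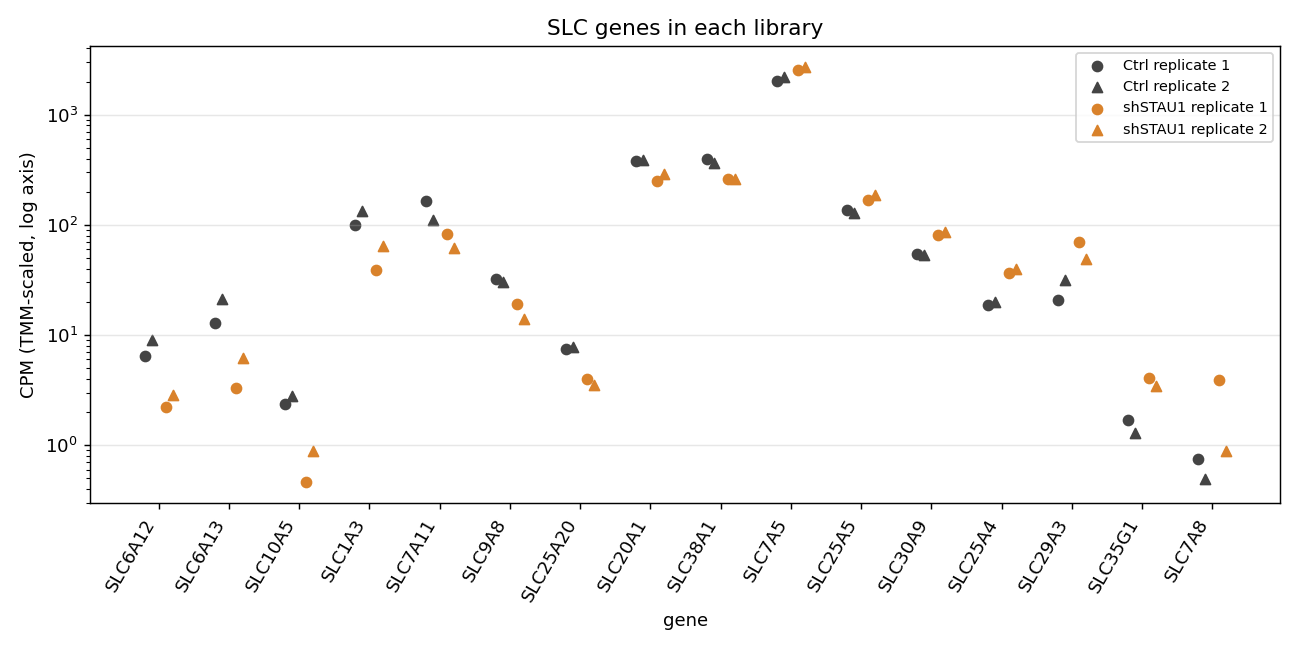
Level of 16 SLC genes in each library (y axis, CPM after TMM scaling, log axis; grey points are Ctrl and orange points shSTAU1, circles replicate 1 and triangles replicate 2). SLC6A12 and SLC6A13 fell and SLC25A4 rose with the groups apart, while the SLC7A8 value is set by 1 shSTAU1 library.

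Mitochondrial carriers, all of the SLC25 family, were more often higher than lower. Of 30 members 20 were higher and 10 lower, and their median log2 fold change was 0.15, and their summed level was 1627 and 1670 CPM in Ctrl and 1891 and 1972 CPM in shSTAU1. SLC25A4 alone passed the adjusted p of 0.05, 3.33% of the group beside 2.6% of all tested genes. Among protein-coding genes with at least 200 counts this share was 3.31%. At an unadjusted p under 0.05, 4 members were higher (13.3% beside 12.9% of all tested genes) and 2 lower (6.67% beside 11.6%). The shares of protein-coding genes with at least 200 counts were 15.5% higher and 11.3% lower. With library size scaling 18 were higher and 12 lower, and the median ran from 0.0898 without Ctrl replicate 1, or 0.0952 without shSTAU1 replicate 2, to 0.2232 without shSTAU1 replicate 1. In 12 members (40.0%) both shSTAU1 libraries were above both Ctrl libraries, beside 28.5% of all tested genes, and in 4 (13.3%) both were below, beside 28.0%. Of protein-coding genes with at least 200 counts, 32.4% were above and 25.3% below in this way.

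The other ADP/ATP carrier that could be measured was SLC25A5 (translocase 2), the form of proliferating cells, at 135 and 128 CPM in Ctrl and 168 and 188 CPM in shSTAU1. It too was apart, with a log2 fold change of 0.43 (SE 0.13, edgeR's quasi-likelihood test, adjusted p = 0.0976). Per kilobase of exon it was at 87.9 CPM in Ctrl and 119 CPM in shSTAU1. SLC25A6, the third carrier of this kind, was listed at 0 in every library. SLC25A3, which brings phosphate into the matrix for ATP synthesis, was at 632 and 611 CPM in Ctrl and 763 and 750 CPM in shSTAU1 (log2 fold change 0.28, SE 0.12).

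SLC25A20, which carries acylcarnitines into the matrix for fatty acid oxidation, had the lowest log2 fold change of the group. It was at 7.43 and 7.73 CPM in Ctrl and 4.02 and 3.51 CPM in shSTAU1. The replicates were close and the groups apart, with a log2 fold change of -1.01 (SE 0.24, edgeR's quasi-likelihood test, adjusted p = 0.0684). SLC25A30 was at 11.8 and 12.4 CPM in Ctrl and 6.29 and 8.49 CPM in shSTAU1 (log2 fold change -0.71, SE 0.23). SLC25A14, also called UCP5, was at 3.54 and 5.13 CPM in Ctrl and 7.35 and 8.83 CPM in shSTAU1 (log2 fold change 0.90, SE 0.28). The aspartate/glutamate carrier SLC25A13 (citrin), among the most abundant members per kilobase, was at 233 and 266 CPM in Ctrl and 282 and 283 CPM in shSTAU1.

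**Figure D3:**
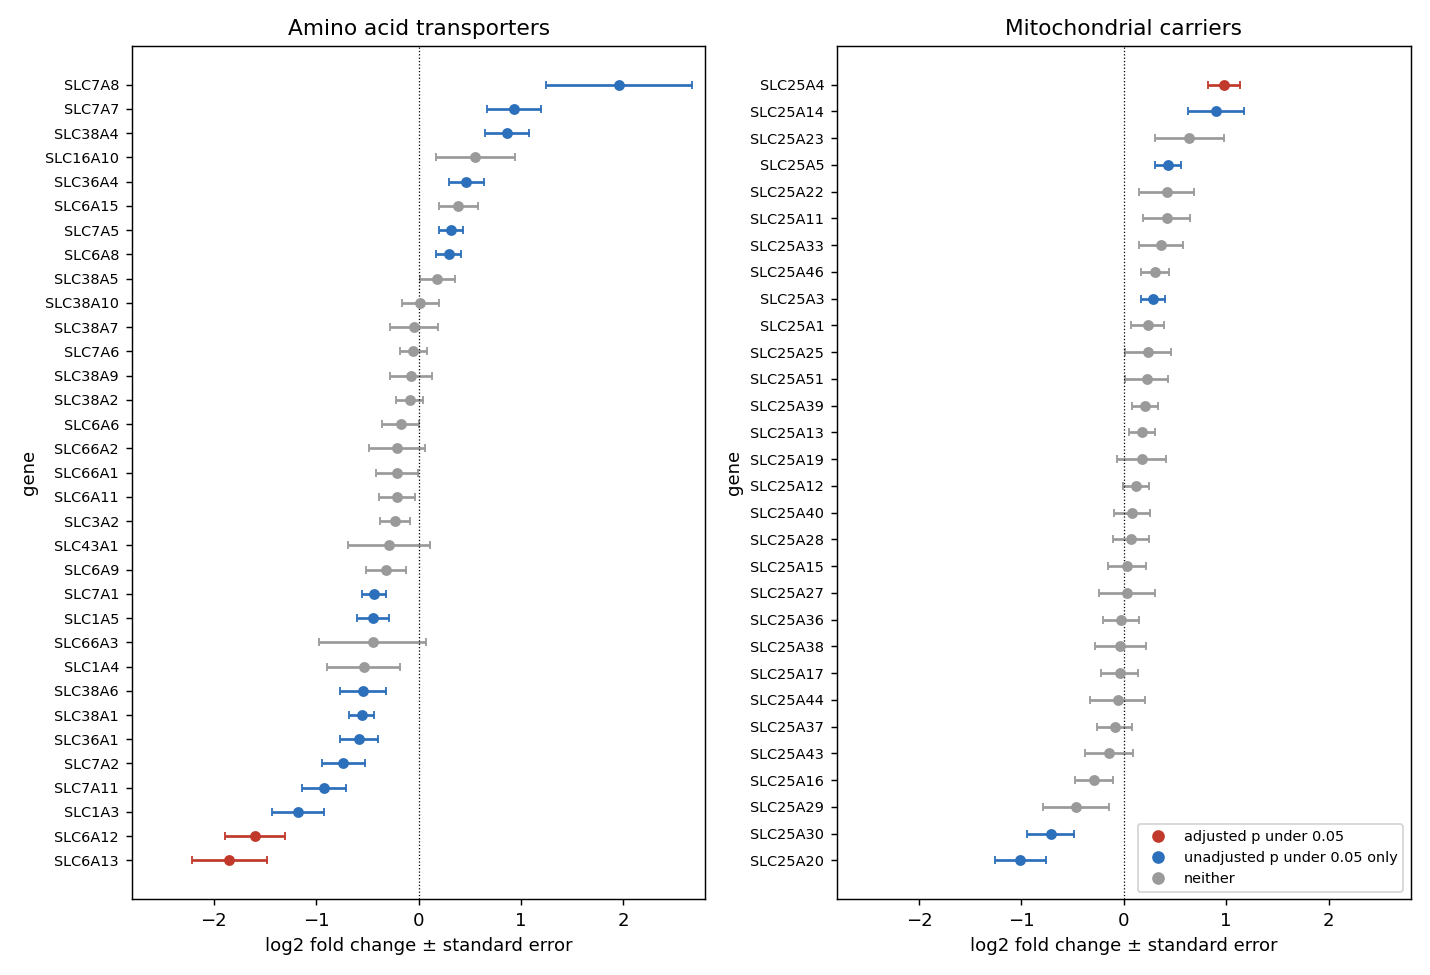
Log2 fold change (x axis, shSTAU1 over Ctrl) with its standard error (bars) for each amino acid transporter (left, 33 genes) and each mitochondrial carrier (right, 30 genes); red passed an adjusted p of 0.05 and blue an unadjusted p of 0.05 only. SLC6A12 and SLC6A13 lie at the low end of the left panel and SLC25A4 at the top of the right panel.

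Metal transporters numbered 18, with 7 higher, 11 lower, a median of -0.14 on the log2 scale and no member past the adjusted p of 0.05. At an unadjusted p under 0.05, 1 was higher (5.56% beside 12.9% of all tested genes) and 4 lower (22.2% beside 11.6%). Of the zinc families, 6 of 7 SLC39 (ZIP) genes, which bring metal into the cytosol, were lower. The SLC30 (ZnT) genes, most of which move it out of the cytosol, were near even, with 4 of 6 higher and a median of 0.09. With library size scaling, without Ctrl replicate 1 (median -0.0147) and without shSTAU1 replicate 1, 3 of 6 were higher. The difference between the families was not tested. SLC30A9 (ZnT9), a mitochondrial zinc transporter, was at 54.2 and 53.1 CPM in Ctrl and 80.9 and 86.4 CPM in shSTAU1. Its replicates agreed closely, and its log2 fold change of 0.64 (SE 0.13) just missed the limit (edgeR's quasi-likelihood test, adjusted p = 0.0510), which it passed with length and GC offsets (0.0451). SLC30A1, the zinc exporter of the plasma membrane, was at 13.4 and 18.2 CPM in Ctrl and 16.8 and 15.5 CPM in shSTAU1, which overlap.

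SLC39A8 (ZIP8) was at 17.6 and 20.2 CPM in Ctrl and 7.61 and 15.03 CPM in shSTAU1, and SLC39A10 (ZIP10) at 76.2 and 65.0 CPM in Ctrl and 55.1 and 53.7 CPM in shSTAU1. Both were apart, with log2 fold changes of -0.74 (SE 0.31) and -0.38 (SE 0.14). SLC39A6 (ZIP6), the most abundant member of the group per kilobase, was the 1 SLC39 gene on the higher side, at 120 and 115 CPM in Ctrl and 150 and 127 CPM in shSTAU1. The magnesium transporters SLC41A1 and SLC41A3 had log2 fold changes of -0.44 (SE 0.15) and -0.46 (SE 0.17).

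Carriers of sodium, potassium, calcium, chloride and protons (16 members) had 6 higher and 10 lower genes, a median of -0.21 on the log2 scale and none past the adjusted p of 0.05. The median was -0.1357 without shSTAU1 replicate 2 and -0.3243 without shSTAU1 replicate 1. The 5 with an unadjusted p under 0.05 were all lower, 31.25% of the group beside 11.6% of all tested genes. The sodium/proton exchangers of the SLC9 family had 3 higher and 3 lower genes. SLC9A8 (NHE8), found in the Golgi and endosomes, was at 31.97 and 30.4 CPM in Ctrl and 19.1 and 13.9 CPM in shSTAU1 (log2 fold change -0.92, SE 0.20, edgeR's quasi-likelihood test, adjusted p = 0.0564). SLC9A7 (NHE7), of the trans-Golgi network, was at 60.01 and 43.0 CPM in Ctrl and 37.6 and 33.2 CPM in shSTAU1. Both of these organelle exchangers were lower without overlap, as were 28.0% of all tested genes.

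SLC12A4 (KCC1), a potassium/chloride cotransporter that lets swollen cells lose salt, was at 110 and 113 CPM in Ctrl and 85.5 and 61.9 CPM in shSTAU1 (log2 fold change -0.59, SE 0.17, edgeR's quasi-likelihood test, adjusted p = 0.0954). Its annotation overlaps that of LCAT on the same strand, which had 1096 summed counts. SLC12A2 (NKCC1), which works in the opposite direction, was at 85.3 and 98.2 CPM in Ctrl and 76.6 and 108 CPM in shSTAU1, with the shSTAU1 libraries on either side of both Ctrl libraries. SLC8B1, the sodium/calcium exchanger of mitochondria, was at 16.1 and 12.7 CPM in Ctrl and 9.65 and 5.52 CPM in shSTAU1 (log2 fold change -0.93, SE 0.30).

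Inorganic anion transporters, which carry phosphate, bicarbonate and sulfate, had the lowest median of the groups, -0.39, with 7 of 8 members lower, or 8 of 8 with library size scaling. The median was -0.2765 without Ctrl replicate 1 and -0.413 without Ctrl replicate 2. None of the members passed the adjusted p of 0.05. At an unadjusted p under 0.05, 4 were lower, 50.0% of them beside 11.6% of all tested genes. Their summed level was 1027 and 954 CPM in Ctrl and 737 and 771 CPM in shSTAU1. SLC20A1 (PiT-1), the main sodium-driven phosphate importer of many cells, was at 380 and 388 CPM in Ctrl and 252 and 291 CPM in shSTAU1. These groups did not overlap (log2 fold change -0.50, SE 0.13, edgeR's quasi-likelihood test, adjusted p = 0.0757). SLC4A7 (NBCn1), a sodium/bicarbonate cotransporter that raises the pH of the cytosol, was at 363 and 280 CPM in Ctrl and 251 and 241 CPM in shSTAU1, and the anion exchanger SLC26A6 at 32.8 and 38.5 CPM in Ctrl and 26.7 and 24.7 CPM in shSTAU1. Counting the borate and proton carrier SLC4A11, placed with the cations, all 4 measured SLC4 transporters were lower without overlap, at log2 fold changes from -0.64 to -0.21. None of them passed the adjusted p of 0.05, and 28.0% of all tested genes were lower without overlap.

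Sugar and polyol transporters were lower in 10 of 11 cases, with a median log2 fold change of -0.24, and none passed the adjusted p of 0.05. At an unadjusted p under 0.05, 1 was higher (9.09% beside 12.9% of all tested genes) and 2 lower (18.2% beside 11.6%). Without shSTAU1 replicate 2 the median was -0.1521, with 8 of 11 lower. SLC2A1 (GLUT1), the glucose transporter of most proliferating cells, was at 329 and 281 CPM in Ctrl and 309 and 237 CPM in shSTAU1, which overlap, and SLC2A3 (GLUT3) at 39.3 and 25.4 CPM in Ctrl and 29.3 and 13.9 CPM in shSTAU1, which overlap too. SLC2A9 (GLUT9), known for urate, was apart at 28.7 and 33.4 CPM in Ctrl and 20.5 and 20.1 CPM in shSTAU1 (log2 fold change -0.61, SE 0.16, edgeR's quasi-likelihood test, adjusted p = 0.0801). SLC37A1, a carrier of glucose 6-phosphate, had a log2 fold change of -0.78 (SE 0.25), from 10.1 and 12.8 CPM in Ctrl and 5.63 and 7.67 CPM in shSTAU1. The single higher gene was SLC50A1 (SWEET1), at 9.69 and 10.4 CPM in Ctrl and 19.1 and 12.1 CPM in shSTAU1.

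Of 6 carboxylate transporters, 4 were higher and 2 lower, and none had an unadjusted p under 0.05. Without shSTAU1 replicate 1 the counts turned to 2 higher and 4 lower. SLC16A3 (MCT4), which exports lactate from glycolytic cells, was at 73.5 and 83.5 CPM in Ctrl and 72.3 and 66.7 CPM in shSTAU1 (log2 fold change -0.18, SE 0.14). Its locus overlaps CSNK1D on the opposite strand, and whether the counting used strand was not given. SLC16A1 (MCT1), a transporter of lactate and pyruvate in most cells, was listed with 1 summed count.

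Among 9 carriers of lipids, choline and bile acids, 6 were higher and 3 lower, and their median log2 fold change was 0.20. Without Ctrl replicate 2 there were 4 higher and 5 lower, with a median of -0.0004, and without shSTAU1 replicate 1 the median was 0.0382. None passed the adjusted p of 0.05. At an unadjusted p under 0.05, 1 was higher (11.1% beside 12.9% of all tested genes) and 2 lower (22.2% beside 11.6%). SLC10A5, an orphan of the bile acid family, had the lowest log2 fold change of all members, -1.93 (SE 0.46, edgeR's quasi-likelihood test, adjusted p = 0.0654), on only 79 and 91 counts in Ctrl and 16 and 31 counts in shSTAU1. SLC44A5, a choline transporter-like gene, was at 30.7 and 27.9 CPM in Ctrl and 17.9 and 12.7 CPM in shSTAU1 (log2 fold change -0.94, SE 0.21, edgeR's quasi-likelihood test, adjusted p = 0.0592). SLC44A2, the most abundant of the group per kilobase, was at 157 and 148 CPM in Ctrl and 197 and 168 CPM in shSTAU1, so the SLC44 genes lay on both sides.

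The 4 nucleoside and nucleobase carriers held none past the adjusted p of 0.05. Of the 4, 1 was higher at an unadjusted p under 0.05, beside 12.9% of all tested genes higher at that limit. The member at that limit was SLC29A3 (ENT3), the equilibrative nucleoside transporter of lysosomes. It was at 20.6 and 31.4 CPM in Ctrl and 69.9 and 48.8 CPM in shSTAU1. The groups were apart although the replicates of each differed, with a log2 fold change of 1.19 (SE 0.25, edgeR's quasi-likelihood test, adjusted p = 0.0534), and without Ctrl replicate 2 it was the 1 member that passed (0.0485). SLC29A1 (ENT1), the plasma membrane form, was at 96.5 and 107 CPM in Ctrl and 94.3 and 126 CPM in shSTAU1.

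The SLC35 genes, which include Golgi carriers of nucleotide sugars for glycosylation and orphans, were close to even. With TMM, 12 of 20 were higher and 8 lower. There were 9 higher and 11 lower with library size scaling and without Ctrl replicate 1, and 8 higher and 12 lower without shSTAU1 replicate 2. None passed the adjusted p of 0.05. SLC35G1 alone had an unadjusted p under 0.05, 5.0% of the group beside 12.9% of all tested genes higher at that limit. It was at 1.70 and 1.28 CPM in Ctrl and 4.11 and 3.45 CPM in shSTAU1 (log2 fold change 1.34, SE 0.34, edgeR's quasi-likelihood test, adjusted p = 0.0731). SLC35D1, a carrier of UDP-glucuronic acid, was at 33.6 and 42.8 CPM in Ctrl and 21.1 and 33.6 CPM in shSTAU1. SLC35F2, at 8.36 CPM per kilobase in Ctrl and 8.58 in shSTAU1, overlapped between groups, at 30.7 and 31.5 CPM in Ctrl and 26.8 and 37.0 CPM in shSTAU1. SLC35E2B and SLC35E2A are near-identical copies within 32.1 kb with values of opposite sign, 0.30 and -0.52 on the log2 scale, and reads may be split between them.

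Transporters of organic ions, peptides and urea (12 members) had 4 higher and 8 lower genes and a median log2 fold change of -0.28, with none past the adjusted p of 0.05. The median was -0.557 without shSTAU1 replicate 1 and -0.1571 without shSTAU1 replicate 2. In the SLC22 family, which handles organic cations, anions and carnitine, 5 of 6 genes were lower. Of these, 4 had an unadjusted p under 0.05, 66.7% of the family beside 11.6% of all tested genes. SLC22A4 (OCTN1, ergothioneine) was at 6.13 and 10.6 CPM in Ctrl and 2.79 and 5.21 CPM in shSTAU1. SLC22A5 (OCTN2, carnitine), which lies 25.5 kb from it, was at 31.6 and 36.6 CPM in Ctrl and 26.6 and 24.2 CPM in shSTAU1, also without overlap. SLC22A15 was at 13.7 and 13.8 CPM in Ctrl and 10.6 and 7.78 CPM in shSTAU1. SLC18B1, a vesicular polyamine transporter, was on the higher side, at 20.6 and 17.4 CPM in Ctrl and 30.6 and 21.8 CPM in shSTAU1.

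For vitamins and heme (9 members) the median log2 fold change was 0.01, or -0.05 with library size scaling. It was below 0 without Ctrl replicate 1 (-0.0744), shSTAU1 replicate 1 (-0.0234) or shSTAU1 replicate 2 (-0.0401). No member passed the adjusted p of 0.05, and 2 were lower at an unadjusted p under 0.05 (22.2% beside 11.6% of all tested genes). SLC19A1, the reduced folate carrier, was at 14.7 and 18.4 CPM in Ctrl and 10.4 and 11.01 CPM in shSTAU1, and SLC19A3, a thiamine transporter, at 8.80 and 6.14 CPM in Ctrl and 5.06 and 2.49 CPM in shSTAU1. Both were apart, with log2 fold changes of -0.63 (SE 0.20) and -0.99 (SE 0.38), and SLC19A1 overlaps COL18A1 on the opposite strand. SLC5A6, which takes up biotin and pantothenate, overlapped between groups, at 45.3 and 66.4 CPM in Ctrl and 44.6 and 81.7 CPM in shSTAU1.

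By level per kilobase of exon, averaged over the 4 libraries, the members came in the order SLC7A5 (499.5 CPM per kilobase), SLC38A2 (103), SLC25A5 (103), SLC25A3 (77.4), SLC25A13 (71.7), SLC3A2 (68.9), SLC2A1 (61.2) and SLC20A1 (58.8). SLC7A5 stood far above the next. The order below it differed between groups. In Ctrl it was SLC38A2 (106), SLC25A5 (87.9), SLC3A2 (74.4), SLC25A3 (69.8), SLC20A1 (68.8), SLC25A13 (67.2) and SLC2A1 (64.6), in CPM per kilobase. In shSTAU1 SLC25A5 (119) was ahead of SLC38A2 (100.2), and SLC20A1 (48.7) came last of these. Differences in rank were not tested. Annotations on opposite strands also overlap for SLC22A4 with P4HA2 (6629 summed counts), SLC5A6 with ATRAID (10141) and SLC8B1 with PLBD2 (6265), and reads of such pairs cannot be told apart without strand. SLC5A3 overlaps MRPS6 (346 summed counts) on the same strand. Several genes that many cells use were listed at or near 0: SLC25A6, SLC39A7, SLC35A1 and SLC25A26 at 0, SLC16A1 and SLC39A1 with 1 summed count and SLC25A24 with 3. Outside the family RPS18 and TUBB were also listed at 0 and LDHA with 3 counts, so that a value of 0 in this table cannot be read as absence.

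Of 45 transporter genes of the SLC series that carry other symbols, 37 were tested, and SLCO2A1 and MFSD6 fell while none rose, or 5.41% called beside 2.6% of all tested genes. At an unadjusted p under 0.05, 2 were higher (5.41% beside 12.9% of all tested genes) and 5 lower (13.5% beside 11.6%). SLCO2A1, the prostaglandin transporter, was at 55.4 and 39.0 CPM in Ctrl and 21.1 and 15.6 CPM in shSTAU1 (log2 fold change -1.36, SE 0.23, edgeR's quasi-likelihood test, adjusted p = 0.0358). MFSD6 was at 26.1 and 21.8 CPM in Ctrl and 12.1 and 12.4 CPM in shSTAU1 (log2 fold change -0.96, SE 0.18, edgeR's quasi-likelihood test, adjusted p = 0.0414). Of 25 partners, gradient pumps and regulators, 23 were tested and 1 rose (4.35% beside 2.6% of all tested genes): SGK1, a kinase that keeps many transporters at the cell surface, went from 60.4 and 55.1 CPM in Ctrl to 111 and 93.7 CPM in shSTAU1 (log2 fold change 0.83, SE 0.15, edgeR's quasi-likelihood test, adjusted p = 0.0364). The zinc-binding metallothionein MT2A was at 3513 and 2800 CPM in Ctrl and 1629 and 2011 CPM in shSTAU1 (log2 fold change -0.79, SE 0.16, edgeR's quasi-likelihood test, adjusted p = 0.0510). The other metallothioneins of the list had a higher mean in shSTAU1, MT1E at 396 and 356 CPM in Ctrl and 414 and 486 CPM in shSTAU1 (log2 fold change 0.26, SE 0.14) and MT1X with a log2 fold change of 0.24 (SE 0.24), and neither passed the test. BSG, the chaperone of the lactate transporters, was at 111 and 94.6 CPM in Ctrl and 148 and 129 CPM in shSTAU1 (log2 fold change 0.43, SE 0.14). ATF4, the transcription factor of the amino acid response, overlapped between groups, at 101 and 103 CPM in Ctrl and 102 and 111 CPM in shSTAU1.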

How the data were processed

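RNA of 4 libraries (2 Ctrl, 2 shSTAU1) was sequenced from TruSeq RNA Exome libraries. The authors deposited the reads counted per gene as whole-number counts, without normalization. The submitters' processing notes name Partek and hg38, and the aligner, strand setting and counting program are not given in the sources used here. No column was left unmapped. Of 67008 gene identifiers, 58561 are in GENCODE 29 (GRCh38), which gave positions, exon lengths and gene types. Its release may differ from the authors' own, and it holds 99.9% of the counts.

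The whole table was fitted with edgeR 4.0.16 (R 4.3.3): filterByExpr (14303 genes left), TMM scaling, the quasi-likelihood test and Benjamini-Hochberg adjustment at 0.05. The biological coefficient of variation was 19.1%. A chi-square comparison of the counts of each pair of replicates gave 23.4 per degree of freedom in Ctrl and 56.4 in shSTAU1, above sampling noise, and all 4 libraries were used. The models were tested on simulated counts.

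The members and lists were chosen with earlier results of these data known. Named genes are members past the threshold, the 5 highest and 5 lowest log2 fold changes at an unadjusted p under 0.05 and at least 1 CPM, the most abundant member per kilobase of each substrate group, a list of transporters of squamous carcinoma and nutrient supply, and called genes of the related lists. Other genes (SLC38A1, SLC30A9, SLC9A7, SLC9A8 and others) were named after their values were seen. Some genes that these rules cover are not reported here. Alternatives were DESeq2 1.42.0, limma-voom (limma 3.58.1), library size scaling, no filter, the replicate number as a block, length and GC offsets (99.0% of tested genes), looser thresholds, a minimum of 1000 counts and leaving out each library. Leaving out the non-transporters was added after the data were seen.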

Additional observations from a re-analysis of the deposited data

How the results depend on the processing

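Of 819 alternative values for 63 named members, 585 kept their direction and side of the threshold, 206 passed it newly, 11 no longer passed and 17 turned sign. The number of members called, 3 in the edgeR test, was 20 with DESeq2 (1449 genes in all, against 372), 0 without a filter (11 genes in all), 22 at an adjusted p under 0.10 (1585) and 31 at a fold change of at least 1.5 with an unadjusted p under 0.05 (2098). It was 2 with limma-voom (without SLC6A13), 4 with library size scaling (SLC38A1 added), 3 with length and GC offsets (SLC30A9 in place of SLC6A13), 2 at a minimum of 1000 counts (which leaves out SLC6A12) and 3 without the non-transporters.

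Leaving out 1 library gave from 0 to 40 members and from 0 to 2780 genes: 0 and 0 without Ctrl replicate 1, 1 and 64 without Ctrl replicate 2, 40 and 2780 without shSTAU1 replicate 1 and 33 and 2203 without shSTAU1 replicate 2. In these fits the lone library is assumed to vary like the other group. The log2 fold change of STAU1 ran from -2.60 to -2.58, and its call too was lost without Ctrl replicate 1 (edgeR, adjusted p = 0.49). The median of the members was -0.12 with library size scaling and from -0.122 to -0.0625 when 1 library was left out.

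The replicate numbers are shared by both groups, but nothing states that a number marks a batch. Same-numbered libraries deviated together (correlation 0.27 in the tested genes together, and 0.59 in the 4791 with a log2 CPM over 5). A fit with a replicate block called 62 members (21 higher, 41 lower, 34.6% beside 28.6% of all genes) and 4087 genes, and with the block and the length and GC offsets 53 members and 3617 genes. This is a hint from the data and not from the design.

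Signs turned in 8 genes, all within 0.24 of 0 on the log2 scale in the edgeR test. SLC12A2 was at -0.0118 with limma-voom, -0.0495 with library size, -0.000847 with no filter, -0.0117 with the block, and from -0.27 to 0.24 on leaving out 1 library. Library size also turned SLC35F2 (-0.0159) and SLC30A1 (-0.0200). On leaving out 1 library SLC35F2 ran from -0.22 to 0.26, SLC30A1 from -0.18 to 0.28, SLC5A6 from -0.34 to 0.56, SLC5A3 from -0.57 to 0.0365, SLC29A1 from -0.12 to 0.32, SLC2A1 from -0.35 to 0.0073 and SLC38A2 from -0.19 to 0.0080.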
